A study of Homo sapiens with 6 samples.

Results

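The distal chromosome 7p genes are 59 genes that lie in the outermost 20 Mb of the short arm of human chromosome 7. They were chosen by position after the same comparison between genotypes had shown higher values along this segment, so the differences between genotypes given for them are the values they were selected on and are a description. All 59 were found among the 35793 genes listed, and 58 were among the 15536 genes with a mean of at least 10 normalized counts, the level needed to enter the test. The remaining gene, MEOX2, which encodes a homeobox factor of mesoderm, was listed at 0 in all 6 libraries. A count of 0 allows up to 3 reads per library, or from 1.91 to 4.53 normalized counts. RNA was sequenced in bulk from cardiomyocytes on day 15 of differentiation, grown from WTC11, an established human induced pluripotent stem cell line. One genotype was the unedited parent (wild type) and the other a WTC11 derivative with a homozygous knockout of STK25, a serine/threonine kinase gene, made with CRISPR/Cas9. Each genotype had 3 biological replicates, and no treatment was given to either. The knockout was 1 cell line, so the edit and any other difference between the lines cannot be told apart.

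The short arm of chromosome 7 ends in a gene-dense stretch whose members have unrelated tasks and share mainly their place. They include the actin-bundling protein fascin, the GTPase RAC1, the mismatch repair factor PMS2, the aryl hydrocarbon receptor, the histone deacetylase HDAC9 and the mesenchymal transcription factor TWIST1. Many are housekeeping genes with CpG-rich promoters, which are active in most cell types, the heart included.

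Promoter sequence is shown first for 5 of the genes that carry the description, 4 with higher and 1 with lower values in the knockout. Promoter windows came from RefSeq on GRCh38.p14, from 250 bases before to 50 bases after the annotated start, and 43 of the 59 genes had one. FSCN1, GET4, RADIL, PSMG3, MAFK, RAC1 and TWIST1 were among the genes without a window there. Each sequence reads 5′ to 3′ on the gene's own strand. Capitals mark matches, on either strand, to a GC box, a CCAAT box, a TATA box, an E-box, a heat shock element core or a cAMP response element, whose letters are given with the counts below the sequences. ZFAND2A lies on the minus strand at chr7:1160147-1160446, TSPAN13 on the plus strand at chr7:16753505-16753804, CHST12 on the plus strand at chr7:2403361-2403660, AIMP2 on the plus strand at chr7:6009022-6009321 and GPER1 on the plus strand at chr7:1086868-1087167. AIMP2 and GPER1 have 2 windows each in the table, of which the one listed first is printed.
ZFAND2A: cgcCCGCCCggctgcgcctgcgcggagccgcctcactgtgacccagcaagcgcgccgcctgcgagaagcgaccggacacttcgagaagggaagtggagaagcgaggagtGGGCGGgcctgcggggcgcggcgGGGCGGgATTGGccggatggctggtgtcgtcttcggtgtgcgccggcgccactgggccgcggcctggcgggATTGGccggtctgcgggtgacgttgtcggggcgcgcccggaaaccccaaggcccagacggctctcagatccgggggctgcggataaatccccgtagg
TSPAN13: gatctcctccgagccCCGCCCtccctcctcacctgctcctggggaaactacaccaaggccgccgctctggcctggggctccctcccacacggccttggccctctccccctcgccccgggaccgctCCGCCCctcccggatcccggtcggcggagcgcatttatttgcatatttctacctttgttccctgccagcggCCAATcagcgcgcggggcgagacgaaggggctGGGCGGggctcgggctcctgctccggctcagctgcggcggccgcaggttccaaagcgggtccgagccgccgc
CHST12: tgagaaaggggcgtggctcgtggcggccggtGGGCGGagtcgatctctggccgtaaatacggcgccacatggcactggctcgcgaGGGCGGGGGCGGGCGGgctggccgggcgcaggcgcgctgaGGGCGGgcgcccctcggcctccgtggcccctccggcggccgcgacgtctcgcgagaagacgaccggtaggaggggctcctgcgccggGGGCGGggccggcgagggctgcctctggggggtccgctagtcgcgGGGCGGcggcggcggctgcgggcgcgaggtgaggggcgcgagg
AIMP2: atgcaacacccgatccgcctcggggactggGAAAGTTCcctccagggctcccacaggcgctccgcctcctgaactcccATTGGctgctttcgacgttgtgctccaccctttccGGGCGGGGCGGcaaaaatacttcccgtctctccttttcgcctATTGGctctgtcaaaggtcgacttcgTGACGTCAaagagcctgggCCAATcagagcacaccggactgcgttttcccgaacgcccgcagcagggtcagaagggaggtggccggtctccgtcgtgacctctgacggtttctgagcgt
GPER1: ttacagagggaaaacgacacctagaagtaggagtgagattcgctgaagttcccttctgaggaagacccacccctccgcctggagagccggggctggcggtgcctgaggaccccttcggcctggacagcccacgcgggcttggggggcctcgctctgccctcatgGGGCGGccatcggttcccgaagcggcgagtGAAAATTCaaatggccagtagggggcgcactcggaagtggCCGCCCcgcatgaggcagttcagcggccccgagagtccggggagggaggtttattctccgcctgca

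The GC box, searched as GGGCGG, was the most frequent match. It occurred in 34 of the 43 windows (79.1%), against 44.6% of all 27305 promoter windows and 67.9% of those of tested genes. CHST12 holds 7 GC boxes, some of which share letters with each other, while matches to different motifs share none in the 5 windows printed. TSPAN13 and ZFAND2A hold 3 each. The letters CCAAT were present in 16 windows (37.2%, against 35.7% of all windows and 36.3% of those of tested genes). A TATA box, searched as TATAAA, occurred in 2 windows (4.65%, against 12.0% of all windows and 6.23% of those of tested genes). The E-box, searched as CACGTG, occurred in 8 windows (18.6%), against 7.43% of all windows and 9.73% of those of tested genes. A heat shock element core, searched as GAANNTTC, was found in 4 windows (9.30%, against 6.87% of all and 4.63% of tested), those of GPER1, AIMP2, BZW2 and ANKMY2. The windows of BZW2 and ANKMY2 overlap and share their match, so the 4 windows hold 3 sites. A cAMP response element, searched as TGACGTCA, was found in 2 windows (4.65%, against 1.98% of all and 3.07% of tested), those of AIMP2 and PMS2, whose windows lie over most of the same bases on opposite strands and share the match. By base composition 37 of the 43 (86.0%) were CpG-rich, with a GC content of at least 50% and an observed to expected CpG ratio of at least 0.6. The same held for 46.9% of all windows and 76.5% of those of tested genes. These matches describe the letters of the windows, and no assay of binding was made.

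Sequencing depth and the state of the libraries bear on every value below. Gene totals recovered from the normalized counts ran from 22443904 to 53224112 reads per library, and replicates of a genotype differed by more than sampling noise (chi-square from 20.1 to 388 times the degrees of freedom). STK25 had 8874, 6774 and 8710 normalized counts in the wild type and 3906, 3434 and 3820 in the knockout, a log2 difference of -1.12 (SE 0.19; limma, Benjamini-Hochberg adjusted p = 0.009). This call was lost when wild-type replicate 1 was left out (adjusted p = 0.0609). Wild-type replicate 2 and knockout replicate 1 stood apart together: over all tested genes their deviations from the genotype means correlated with r = 0.448, and both favoured short transcripts. The slope of the deviation was -0.19 and -0.13 log2 units per doubling of transcript length in these libraries and from -0.0008 to 0.13 in the other 4. All 8 cardiomyocyte markers checked were tested, summing to between 1052897 and 1251768 normalized counts in the wild type and between 1666806 and 3076930 in the knockout, while 1 of the 8 was called lower and no other was called. Smooth muscle markers summed to 82158 to 94153 in the wild type and 490518 to 539769 in the knockout, with 4 of 5 called higher, and epithelial markers to 122741 to 128799 and 279152 to 310246, with 2 of 5 called higher and 1 lower. Epicardial markers summed to 103 to 219 and 912 to 1091 (2 of 5 called higher), neural markers to 4538 to 7867 and 7077 to 16868 (3 of 4 tested called higher) and fibroblast markers to 12924 to 26543 and 7871 to 16397 (3 of 8 called higher, 1 lower). Of the endoderm and liver markers 1 of 3 tested was called lower, and the 4 endothelial and 4 pluripotency markers tested gave no call. None of the 59 genes belongs to the 9 marker lists, and the part of such cells in the differences below was not tested. In bulk RNA, fewer cells of a type and less RNA per cell cannot be told apart.

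Most distal 7p genes had moderately higher values in the knockout. The difference is the mean log2(normalized count + 1) of the knockout minus that of the wild type, and it was over 0 in 49 of the 58 genes, against 50.4% of all tested genes. Its median was 0.62, a 1.53-fold level, with quartiles of 0.41 and 0.88, while the median over all tested genes was 0.0052. Scaled to equal library totals, which lowered the median of all tested genes to -0.27, the median of the 58 was 0.33 and 46 were over 0, with ETV1 (-0.16), GNA12 (-0.08) and KDELR2 (-0.16) changing sign. A gene is counted as called when its Benjamini-Hochberg adjusted p from limma over all 15536 genes was under 0.05. By that count 10 of the 58 were called higher, where 5.97% of all tested genes were, and 1 was called lower, where 6.79% were. The lowest knockout library lay above the highest wild-type library in 24 genes (16.2% of all tested genes), and the reverse held in 5 (17.2%). Since the segment was chosen on this contrast, nothing is read from these shares. The median absolute deviation of the differences was 0.26 log2 units around their median, against 0.46 for all tested genes. It was 0.66 for the other 33 tested genes of the same 20 Mb and 0.75 for the 43 at 20 to 30 Mb. The 58 genes had a median level of 1456 normalized counts, against 616 for all tested genes, and the part of level in this spread was not tested. Of the 58, 35 had a fold change between 1.2 and 2.

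**Figure D1:**
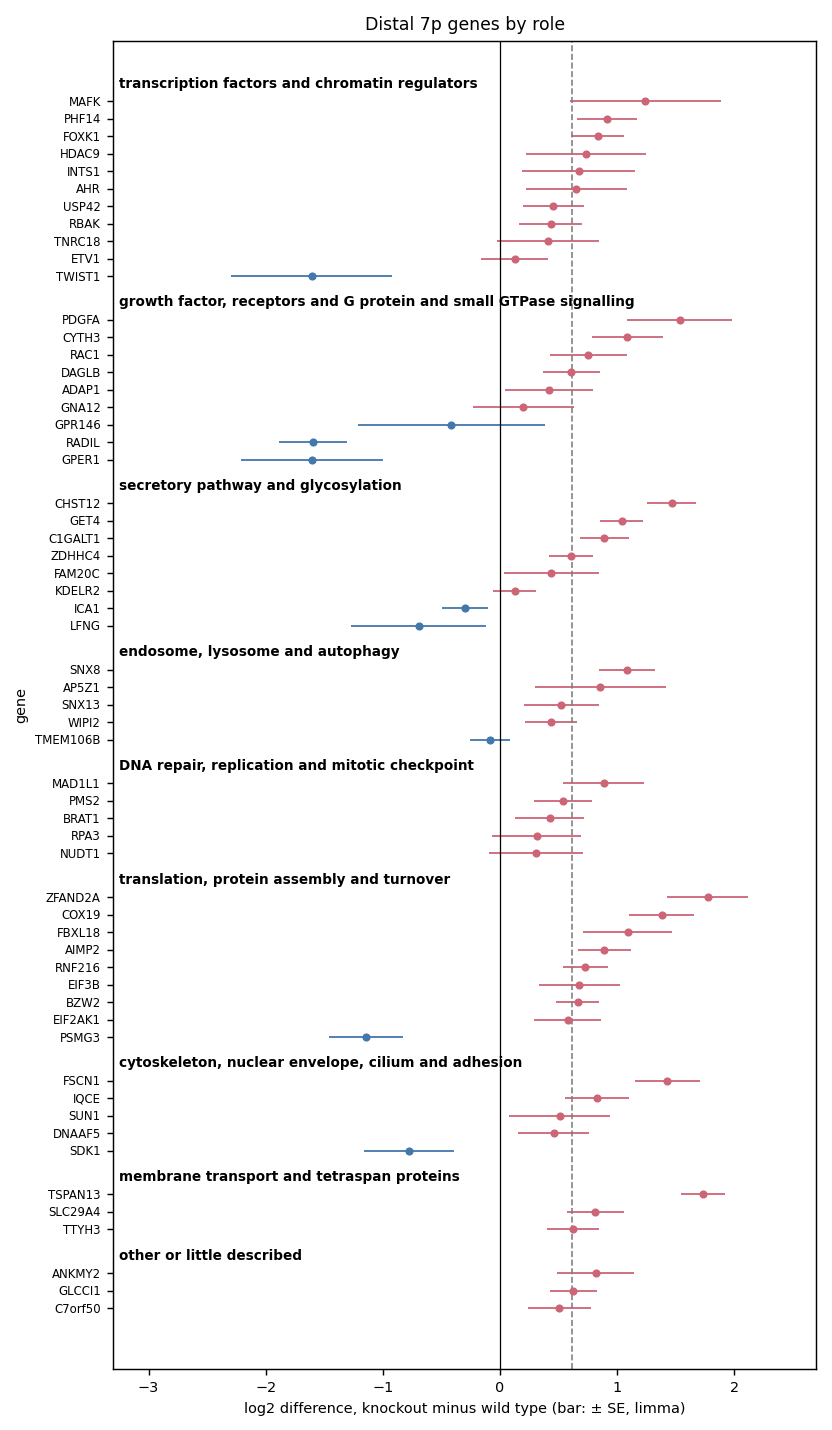
Log2 difference between knockout and wild type (x axis, log2(normalized count + 1) units; points with limma SE bars, 3 libraries per genotype) for the 58 distal 7p genes tested, grouped by role; red is over 0, blue under 0, and the dashed line is their median of 0.62. In each of the 9 role groups most genes lie to the right of 0, and 9 genes lie to the left.

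Each knockout library showed the shift. Measured from the wild-type mean of each gene, the median over the 58 genes was -0.03, -0.06 and 0.06 in wild-type replicates 1, 2 and 3, and 0.54, 0.73 and 0.61 in the knockout replicates. The number of genes over their wild-type mean was 28, 26 and 33 in the wild-type libraries and 41, 47 and 49 in the knockout libraries. The 58 genes took up 0.342%, 0.294% and 0.355% of all normalized counts in the wild type and 0.352%, 0.494% and 0.462% in the knockout, so by share of the total knockout replicate 1 lay within the wild-type range.

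**Figure D2:**
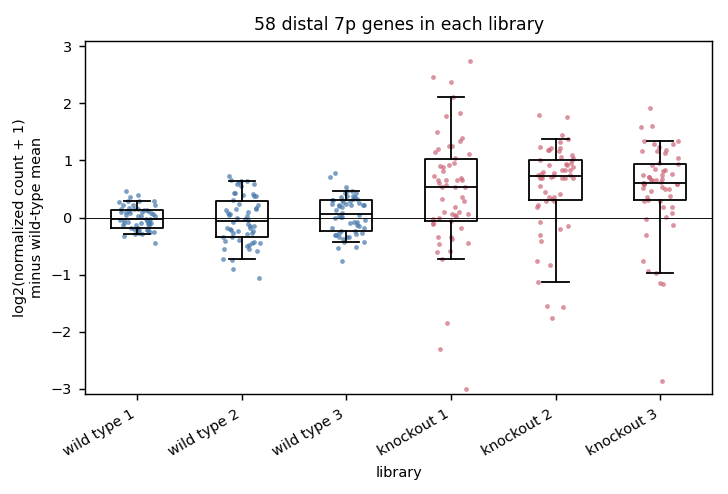
Deviation of each of the 58 genes from its wild-type mean (y axis, log2(normalized count + 1) units) in each of the 6 libraries (x axis); points are genes, boxes give the median and quartiles, and whiskers mark percentiles 5 and 95. The 3 knockout boxes have medians of 0.54, 0.73 and 0.61, and the points of knockout replicate 1 spread the most.

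The libraries that stood apart blurred single genes more than the median. Of the 58 genes, 29 were lowest in knockout replicate 1 among the knockout libraries and 22 were highest there, while 26 were lowest and 23 highest in wild-type replicate 2 among the wild-type libraries. In 22 genes both of these libraries were the lowest of their genotype, and in 17 both were the highest. Across the 58 genes, which are not independent replicates, the deviation of wild-type replicate 2 from its group followed that of knockout replicate 1 (r = 0.61, rho = 0.73). Without these 2 libraries the median difference was again 0.62, with 50 genes over 0. Then 29 genes were called higher (14.9% of all tested genes were) and 4 lower (13.98%). In 41 the groups did not overlap, with higher knockout values (33.4% of all tested genes).

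**Figure D3:**
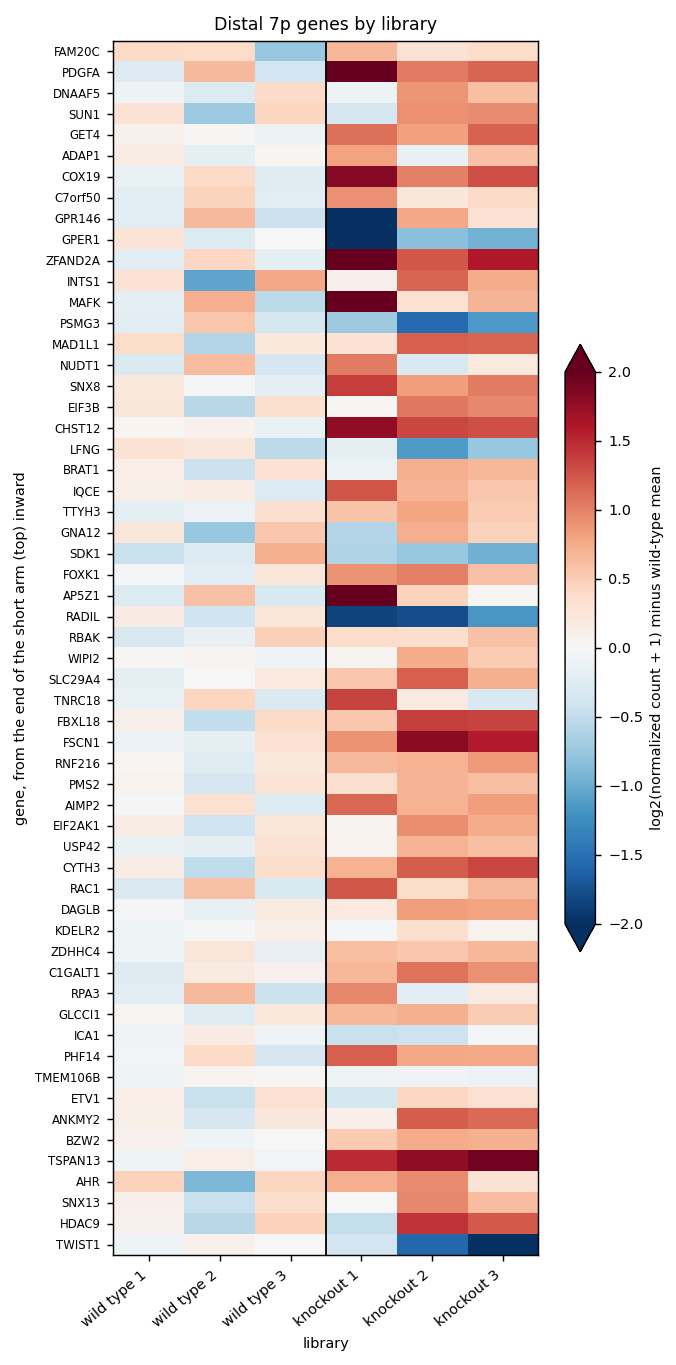
Heat map of the deviation of each gene from its wild-type mean (colour, log2(normalized count + 1) units, clipped at 2) for the 58 genes in order from the end of the short arm (rows) in the 6 libraries (columns). Red fills most of the 3 knockout columns, GPER1, RADIL and PSMG3 are among the genes blue in all 3, and knockout replicate 1 departs from the other 2 in genes such as MAFK, AP5Z1 and GPR146.

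Transcription and chromatin genes made up 11 of the 58, 10 of them over 0, with a median of 0.65. MAFK, a small Maf protein that pairs with NRF2 and BACH factors, had 219, 414 and 172 normalized counts in wild-type replicates 1 to 3 and 1680, 308 and 402 in the knockout, a difference of 1.24 (SE 0.64) on the log2 scale. The groups overlapped, knockout replicate 1 was far above the rest, and the difference was 0.49 without it and 0.85 without both libraries that stood apart. PHF14, a PHD finger protein that binds histone H3, read 878, 1191 and 718 against 2091, 1558 and 1542 (0.91, SE 0.25), without overlap. HDAC9, a class IIa histone deacetylase of muscle, read 1097, 708 and 1430 against 746, 2820 and 2430 (0.73, SE 0.51). Its knockout replicate 1 lay within the wild-type range and the other 2 lay above it, so the difference was 1.34 without replicate 1. FOXK1, INTS1, AHR, USP42, RBAK, TNRC18 and ETV1 had differences from 0.12 to 0.83, lowest in ETV1, an ETS factor of the atrial and conduction myocardium. TWIST1 was the exception, with 42.3, 48.0 and 45.3 in the wild type and 34.3, 14.5 and 5.33 in the knockout (-1.61, SE 0.69), every knockout library lying below the wild type. Without knockout replicate 3 the difference was -0.98, and without knockout replicate 1 it was -2.22. In knockout replicate 3 the value was near the detection limit, as 3 reads there equal 2.67 normalized counts.

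Signalling genes were the most divided group, with 6 of 9 over 0 and a median of 0.42. RADIL, an effector of the small GTPase Rap in cell adhesion, was the 1 gene called lower, with 1095, 739 and 1158 normalized counts in the wild type and 269, 286 and 436 in the knockout (-1.60, SE 0.29). It spans chr7:4797055-4883719 on GRCh38, minus strand, and its listed neighbours AP5Z1 and RBAK on either side both had positive differences. GPER1, a membrane receptor for estrogen, read 237, 161 and 196 against 22.9, 109 and 101 (-1.60, SE 0.60). The groups did not overlap, and the difference was -0.89 without knockout replicate 1 and -1.03 without both libraries that stood apart. GPR146, an orphan receptor, read 68.0, 126 and 58.7 against 15.3, 136 and 97.8 (-0.42, SE 0.80). It was below every wild-type library in knockout replicate 1 alone, and without that library its difference was 0.53. GPER1 and GPR146 lie within the span of C7orf50, on the opposite strand to it, so reads of these genes may not be fully separated. RAC1, the GTPase that drives lamellipodia, read 7104, 13081 and 7023 against 20587, 11147 and 13645 (0.75, SE 0.33), and wild-type replicate 2 lay within the knockout range. PDGFA, a growth factor ligand named here after its values were seen, read 143, 269 and 131 against 900, 356 and 388 (1.53, SE 0.45). CYTH3, DAGLB, ADAP1 and GNA12 had differences from 0.20 to 1.09.

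**Figure D4:**
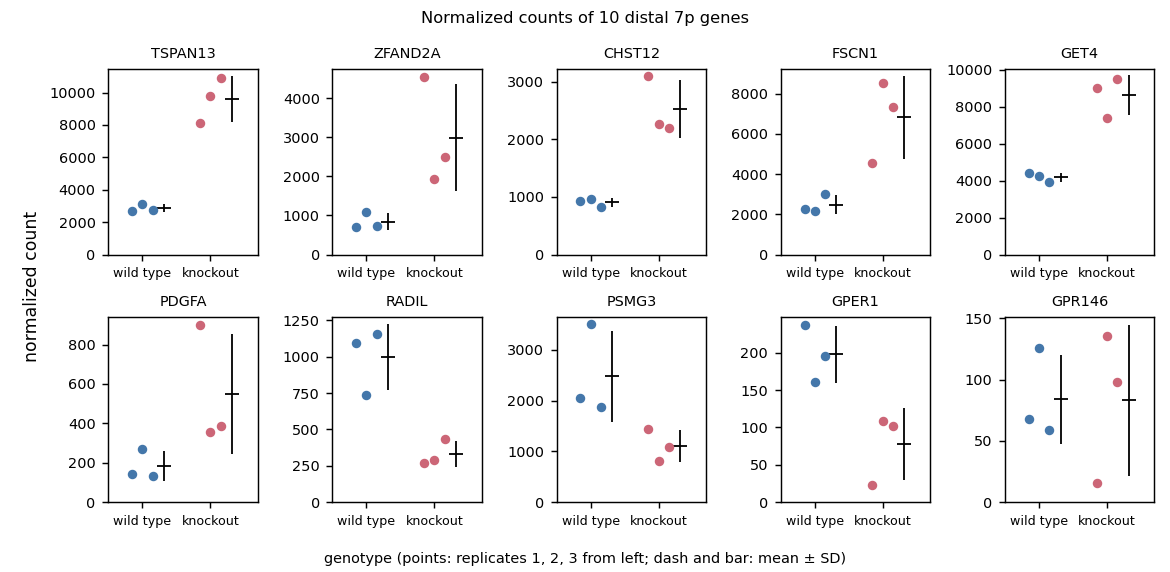
Normalized counts (y axis, each from 0) of 10 distal 7p genes in the 3 wild-type (blue) and 3 knockout (red) libraries, with mean and SD (n = 3). Points do not overlap between genotypes in any gene shown other than GPR146; RADIL, PSMG3 and GPER1 lie lower in the knockout.

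In the secretory pathway 6 of 8 genes were over 0, with a median of 0.52. CHST12, which adds sulfate to chondroitin chains, read 930, 961 and 825 normalized counts in the wild type and 3103, 2271 and 2205 in the knockout (1.46, SE 0.21). The wild-type libraries were close together and every knockout library lay above them. GET4, a cytosolic factor that hands tail-anchored proteins to the endoplasmic reticulum, read 4409, 4227 and 3903 against 8998, 7395 and 9499 (1.04, SE 0.18), also without overlap. GET4 shares its span with SUN1 on the same strand, so reads of these genes may not be fully separated. C1GALT1, ZDHHC4, FAM20C and KDELR2 had differences from 0.12 to 0.89, lowest in the KDEL receptor KDELR2. LFNG, a glycosyltransferase that modifies Notch, was near the detection limit at 28.7, 27.4 and 15.9 against 20.3, 10.03 and 13.3 (-0.69, SE 0.57), with overlap. ICA1, a BAR domain protein of secretory vesicles, read 2285, 2673 and 2258 against 1755, 1809 and 2342 (-0.30, SE 0.20), with overlap.

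Endosome, lysosome and autophagy genes were over 0 in 4 of 5 cases, with a median of 0.52. SNX8, a sorting nexin of endosomes, read 523, 443 and 397 normalized counts against 1182, 802 and 932 (1.09, SE 0.24), without overlap. AP5Z1, a subunit of the AP-5 adaptor complex, read 128, 234 and 125 against 674, 212 and 157 (0.86, SE 0.56). The groups overlapped and the difference was 0.23 without knockout replicate 1 and 0.52 without both libraries that stood apart. SNX13 and WIPI2 had differences of 0.52 and 0.44. TMEM106B, a lysosomal membrane protein, read 1551, 1732 and 1681 against 1577, 1575 and 1516 (-0.09, SE 0.17), the value closest to 0 among the 58.

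The 5 genes of DNA repair, replication and mitosis were all over 0, with a median of 0.42. MAD1L1, a spindle checkpoint protein, read 1337, 692 and 1201 normalized counts against 1271, 2363 and 2333 (0.89, SE 0.34), with knockout replicate 1 inside the wild-type range. PMS2, a DNA mismatch repair protein, read 554, 416 and 639 against 662, 850 and 799 (0.54, SE 0.25), without overlap. PMS2 has near-identical pseudogene copies on the same chromosome, so its value is uncertain where reads could be split. BRAT1, RPA3 and NUDT1 had differences from 0.31 to 0.42.

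Translation, protein assembly and turnover held the highest median of the groups with more than 3 genes, 0.73, with 8 of 9 genes over 0. It held 4 of the 10 genes called higher, where 5.97% of all tested genes were, and nothing is read from this count. ZFAND2A, a zinc finger protein induced by arsenite and heat that binds the proteasome, read 702, 1085 and 718 normalized counts against 4540, 1939 and 2484 (1.77, SE 0.34). Its knockout libraries were all above the wild type and replicate 1 was the highest. COX19, needed to assemble cytochrome c oxidase, read 781, 1117 and 730 against 3049, 1740 and 2112 (1.38, SE 0.28), and its knockout replicate 1 was likewise the highest. COX19 shares part of its span with ADAP1 on the same strand, so reads of these genes may not be fully separated. AIMP2, a scaffold of the multi-tRNA synthetase complex, read 6525, 8257 and 5572 against 14803, 10866 and 11901 (0.89, SE 0.22). BZW2, a regulator of start codon choice, was the most abundant of the 58 at 17347, 15424 and 16212 against 23553, 27249 and 26794 (0.66, SE 0.18). RNF216, FBXL18, EIF3B and EIF2AK1 had differences from 0.58 to 1.09. PSMG3, a proteasome assembly chaperone, went the other way at 2060, 3514 and 1879 against 1436, 813 and 1079 (-1.14, SE 0.31), without overlap. The antisense gene PSMG3-AS1 overlaps it, and without strand information their reads cannot be told apart.

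Cytoskeletal, ciliary and adhesion genes were over 0 in 4 of 5 cases, with a median of 0.51. FSCN1, the actin-bundling protein fascin, read 2261, 2140 and 3032 normalized counts against 4546, 8535 and 7359 (1.43, SE 0.28), all knockout libraries being higher. IQCE, a protein of the base of the cilium, read 483, 496 and 369 against 1069, 718 and 647 (0.83, SE 0.27), without overlap. SUN1 and DNAAF5 had differences of 0.51 and 0.46. SDK1, a homophilic adhesion protein, read 137, 155 and 307 against 123, 110 and 95.1 (-0.77, SE 0.38). Its groups did not overlap, and wild-type replicate 3 was the highest.

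The 3 membrane transport and tetraspan genes were all higher without overlap between genotypes, as were 16.2% of all tested genes. TSPAN13, a tetraspanin at chr7:16753535-16784536, read 2716, 3137 and 2768 normalized counts in the wild type (mean 2874, SD 230) and 8108, 9784 and 10914 in the knockout (mean 9602, SD 1412), a 3.34-fold difference of means. On the log2 scale this was 1.73 (SE 0.19), and 1.91 without the 2 libraries that stood apart. SLC29A4, a transporter of monoamines, read 492, 559 and 647 against 820, 1284 and 922 (0.81, SE 0.25). TTYH3, of the tweety family, differed by 0.62. Of the 3 little described genes, ANKMY2 read 2506, 1830 and 2706 against 2480, 5366 and 5093 (0.82, SE 0.33), with replicate 1 of the knockout inside the wild-type range. GLCCI1, a glucocorticoid-induced transcript, read 1042, 871 and 1192 against 1621, 1679 and 1459 (0.62, SE 0.20), without overlap, and C7orf50 differed by 0.50.

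Position and transcript length had little relation to the size of the difference among the 58 genes, and level a weak one. Per kilobase of the longest transcript, wild-type means ran from 10.1 normalized counts for LFNG to 7771 for BZW2, with AIMP2 (5538) and RAC1 (3904) next below BZW2. Across the genes, r with the difference was 0.08 for log2 transcript length, -0.04 for position and 0.40 for log2 mean level, where rho was 0.20. The median difference was 0.67 in the 29 genes above the median level and 0.54 in the other 29. By position it was 0.51 in 15 genes of the outermost 2 Mb, 0.52 in 10 genes at 2 to 4 Mb, 0.73 in 11 at 4 to 6 Mb, 0.61 in 11 at 6 to 8 Mb, 0.02 in 4 at 8 to 14 Mb and 0.66 in 7 at 14 to 20 Mb. The 11 genes at 6 to 8 Mb were all over 0. The 9 genes under 0 lay among genes over 0, except that GPR146 and GPER1 are next to each other and TWIST1 is last in order. In the 17 genes that share no span with another annotated gene the median was 0.67, with 16 over 0. The other genes of the 58 share a span with another annotated gene, so their reads may not be fully separated. Head-to-head neighbours had differences of 1 sign: PMS2 and AIMP2, with starts 120 bases apart, had 0.54 and 0.89. ANKMY2 and BZW2, 314 bases apart, had 0.82 and 0.66, and SNX8 and EIF3B, whose spans overlap, had 1.09 and 0.68. As 49 of the 58 genes were over 0, shared signs are common here and nothing is read from them.

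The same direction was seen in the other genes of the segment and a little beyond it. Among 33 tested genes at 0 to 20 Mb outside the list, 26 were over 0, with a median of 0.75. Of the 33, 11 (33.3%) were called higher, where 5.97% of all tested genes were. ACTB, cytoplasmic beta-actin, read 30739, 23789 and 30449 normalized counts against 64108, 126903 and 108138 (1.77, SE 0.30). ELFN1, a synaptic adhesion protein, read 121, 147 and 240 against 658, 758 and 667 (2.09, SE 0.31). THSD7A, a membrane protein of endothelium and podocytes, read 75.5, 133 and 89.9 against 360, 196 and 363 (1.60, SE 0.38). In these 3 genes every knockout library exceeded every wild-type library. These genes share the contrast on which the segment was chosen, so their values too are a description.

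Differences over 0 went on past the 20 Mb limit of the list. Just inside it, TWISTNB, a subunit of RNA polymerase I, read 971, 1350 and 914 normalized counts against 2373, 1306 and 1282 (0.58, SE 0.30), after HDAC9 (0.73) and TWIST1 (-1.61). Just outside it, ITGB8, an integrin chain, read 36.3, 9.90 and 12.1 against 52.1, 68.0 and 56.9 (1.77, SE 0.59; limma adjusted p = 0.0927). ABCB5, a membrane transporter, read 31.7, 14.5 and 28.1 against 90.2, 81.4 and 87.1 (1.83, SE 0.45; limma adjusted p = 0.0365), a call lost whichever library was left out. SP8, a zinc finger factor of limb and forebrain, had 2 reads in the wild type and 101 in the knockout, a ratio of 63.7 per unit depth (exact 95% interval 17.2 to 533, counting error only). It reached the mean of 10 needed for the test only through the knockout, so no p is given.

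At 20 to 30 Mb, a limit set after the values were seen, 33 of 43 tested genes were over 0, with a median of 0.78. Of the 43, 15 were called higher, or 34.9% against 5.97% of all tested genes. The 1 called lower, where 6.79% of all tested genes were, was CREB5, a CREB family factor named after its values were seen (-0.80, SE 0.22, limma adjusted p = 0.0487). The 15 include SP8 and RAPGEF5, 2 genes with a wild-type mean under 10. With a minimum mean of 50, which leaves out both, 13 were called higher, against 6.64% of the 13036 genes then tested. The count fell to 7 with knockout replicate 2 left out (3.45% of all tested genes) and to 2 for knockout replicate 3 (2.38%). Dropping a wild-type library gave 4 for replicate 1 (2.57%) and 3 for replicate 3 (2.92%). With both libraries that stood apart left out the count was 20, but 14.9% of all tested genes were then called higher. WIPF3, an actin regulator of the WASP-interacting family, read 147, 162 and 129 normalized counts against 2223, 1715 and 1586 (3.64, SE 0.24; limma adjusted p = 0.0002). MPP6, a membrane-associated guanylate kinase, read 503, 740 and 346 against 3646, 2490 and 2590 (2.50, SE 0.31; limma adjusted p = 0.0026). In both the knockout libraries were far above the wild type. RAPGEF5, an exchange factor for Rap GTPases, read 10.6, 0 and 0 against 31.8, 72.4 and 72.0, and like SP8 it passed the filter only through the knockout. Named after their values were seen, CYCS, the electron carrier cytochrome c, read 20306, 32353 and 20370 against 65470, 48396 and 53818 (1.22, SE 0.26; limma adjusted p = 0.0219), and TAX1BP1, an autophagy receptor, read 6811, 8016 and 5736 against 14684, 13024 and 14045 (1.03, SE 0.20; limma adjusted p = 0.0138).

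In bins of 5 Mb by gene start, the medians were all over 0 as far as 30 Mb and mixed in sign beyond. They were 0.62, 0.62, 0.88, 0.65, 0.78 and 0.77 for the 6 bins from 0 to 30 Mb, then 0.04 at 30 to 35 Mb and -0.20 at 35 to 40 Mb. Single bins beyond reached similar or larger medians, with 0.60 in 12 genes at 45 to 50 Mb, -0.73 in 5 genes at 50 to 55 Mb, 0.58 in 6 genes at 60 to 65 Mb and 1.02 in 7 genes at 80 to 85 Mb. Bins of 2 Mb were less even. Up to 30 Mb their median was -0.30 for the 1 gene at 8 to 10 Mb, 0.02 in 6 genes at 12 to 14 Mb and 0.10 in 8 genes at 26 to 28 Mb. The other 2 Mb bins up to 30 Mb had medians from 0.48 to 1.80. Over 30 to 60 Mb 58 of 111 genes were over 0 (median 0.04). There 10 (9.01%) were called higher and 7 (6.31%) lower, against 5.97% and 6.79% of all tested genes. Single genes there could still differ: VWC2, a secreted BMP antagonist at 49.8 Mb, read 43.8, 84.5 and 25.5 normalized counts against 797, 267 and 323 (3.14, SE 0.57; limma adjusted p = 0.0116), or 0.0536 without wild-type replicate 1. The opposite end of the chromosome went the other way. The last bin of 5 Mb before 140 Mb had 2 of 26 genes over 0 and a median of -0.83. From 140 Mb 12 of 95 genes were over 0, with a median of -1.04. Of these 95, 35 (36.8%) were called lower, against 6.79% of all tested genes. There the library medians of the knockout were -1.18, -0.98 and -0.94, against 0.54 to 0.73 for the 58 distal 7p genes in the same libraries.

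**Figure D5:**
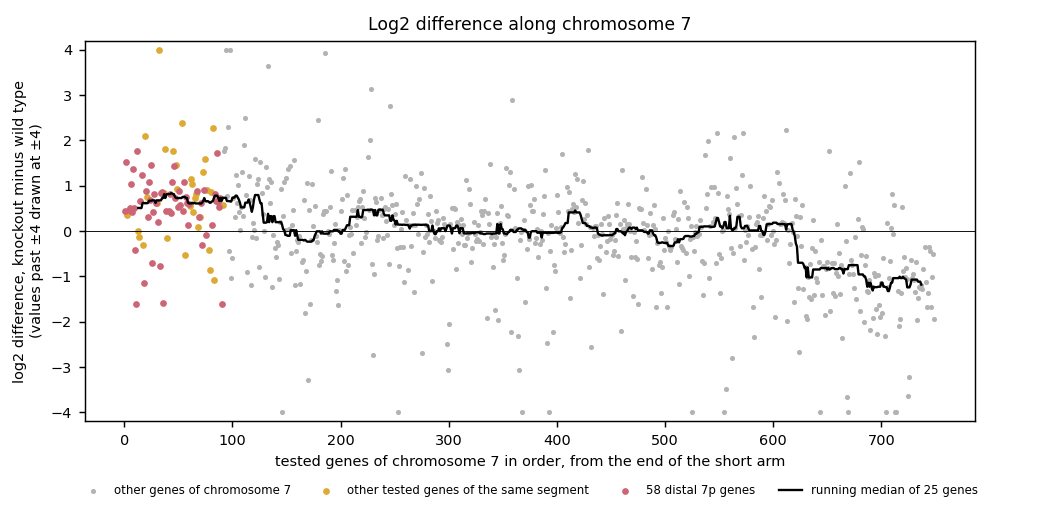
Log2 difference between knockout and wild type (y axis, log2(normalized count + 1) units, values past 4 drawn at 4) of the tested genes of chromosome 7 in order from the end of the short arm (x axis); red, the 58 distal 7p genes; yellow, other tested genes of the same 20 Mb; grey, all others; line, running median of 25 genes. The line lies above 0 over the red and yellow genes and somewhat past them, near 0 along most of the chromosome and near -1.04 at the far end.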

How the data were processed

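RNA was isolated with a column kit including DNase digestion, and cDNA and libraries were made with the Clontech Ultra Low v4 and NexteraXT kits, per the labels' protocols. bcl2fastq 2.19, kallisto 0.44.0, DESeq2 1.28.1 and GRCh38 are listed in the submitters' processing notes, without their roles; strand and annotation are not given in the sources used here. The deposited values are a signal called normalized counts, with 1 column per library and 0 columns unused. Within a tolerance of 0.001, 100% of the values were whole counts times 1 factor per library, so the depths given are recovered counts, which may be rounded estimates, since kallisto assigns reads shared between transcripts by a model. Counting intervals cover counting error only.

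limma 3.58.1 in R 4.3.3 (lmFit, eBayes with a trend) was fitted to log2(value + 1) of genes whose mean reached 10, over all 6 libraries without covariates, with Benjamini-Hochberg adjustment over all genes tested and a threshold of 0.05. The P-values set the difference between genotypes against the spread among replicates within each genotype in these 6 samples. With 1 line per genotype, they do not cover the spread between lines. Fold changes on this scale understate those of low genes. edgeR 4.0.16 and DESeq2 1.42.0 were alternatives on the recovered counts; other alternatives were the pseudocount, filter, scaling, a replicate block and leaving out libraries. Scripts were tested on simulated data. Gene positions were looked up by symbol in GENCODE 29 (GRCh38), which held 97.7% of the tested genes.

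The genes and lists were chosen with earlier results of these data known. Values in all libraries are given for the 2 genes per role group with the largest absolute difference among those whose higher genotype averaged 50 or more, all genes under 0, the 3 most abundant, the 3 on each side of 20 Mb, and the 4 largest differences among called genes at 20 to 60 Mb and among unlisted genes of the segment. Of the last group, 1 gene is not reported here.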

Additional observations from a re-analysis of the deposited data

How the results depend on the processing

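With 3 libraries per genotype, of which 1 in each stood apart, single genes were measured less firmly than the median of the list. Leaving out any 1 library left 47 to 49 distal 7p genes over 0, with medians between 0.55 and 0.70. Scaling to equal totals moved the median of all tested genes from 0.0052 to -0.27 and that of the 58 genes to 0.33. It lowered the median of the other genes at 0 to 20 Mb to 0.47 and of those at 20 to 30 Mb to 0.50. Relative to all genes the 58 stood 0.61 higher under both scalings. That gap could hardly change, since scaling by 1 factor per library moves nearly all genes alike. Of all called genes 46.8% were higher, and 27.4% with equal totals. That scaling gave 5 distal 7p genes called higher (3.53% of all tested genes), 2 lower (9.38%), 14 higher without overlap (9.38%) and 8 lower without overlap (25.2%). Without a filter on low values the median of the other genes at 0 to 20 Mb was 0.33.

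The 10 genes called higher became 20 with DESeq2 (10.003% of all tested genes), 16 with a correction for transcript length (7.41%), 29 without the 2 libraries that stood apart (both settings were chosen after seeing the data) and from 2 to 17 when 1 library was left out: 17 without knockout replicate 1 (6.46%), 2 without knockout replicate 3 (2.38%) or wild-type replicate 1 (2.57%) and 3 without wild-type replicate 3 (2.92%). The 1 called lower became 2 with DESeq2 (10.7%), with the length correction (7.85%) or with a pseudocount of 10 (7.19%), 4 without the 2 libraries (13.98%), and from 0 to 3 without 1 library (0 without wild-type replicate 1 or 3). Genes higher without overlap numbered 41 without the 2 libraries and 25 to 35 without 1 (17.7% to 24.9% of all tested genes). At 20 to 30 Mb the median ran from 0.74 to 0.89 and the count called higher from 2 to 13 when 1 library was left out.

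Over all tested genes, 1982 were called, 3210 by DESeq2, 4483 without the 2 libraries and from 796 to 2181 without 1 library. GPR146 (-0.42) was reversed to 0.53 without knockout replicate 1 and to 0.86 without the 2 libraries, and leaving out 1 library gave -1.01 to 0.53. Same-numbered replicates correlated at -0.23, -0.40 and 0.17. The 2 libraries that stood apart carry different numbers and weigh on these values, so they cannot decide whether the numbers pair the samples. With a replicate block 798 genes were called, 2 of the 58 higher (2.24% of all) and 3 at 20 to 30 Mb.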
